A study of Mus musculus with 30 samples.

Results

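The genes described are the 9 enzymes that break down threonine, cleave glycine, move 1-carbon units between serine, glycine and folate, or make serine from a glycolytic intermediate. They are Tdh and Gcat, Gldc, Shmt1 and Shmt2, Mthfd2, and Phgdh, Psat1 and Psph. They were chosen by name, and all 9 were found among the 22477 genes of the expression table. RNA-seq of polyadenylated RNA covered 30 samples of mouse secondary induced pluripotent stem cells (iPSCs), as 15 conditions with 2 replicates each. All samples carried transgenes for the reprogramming factors Oct4, Sox2, Klf4 and cMyc (OSKM) that doxycycline (dox) switches on, GFP at the endogenous Nanog locus and a constitutive nuclear RFP, and the cells had been kept on CF1 mouse embryonic fibroblasts (MEFs) in medium with serum and LIF. The time course held 7 conditions, at 0, 24, 36, 48, 60, 72 and 96 h after 2i/LIF, the medium with 2 inhibitors and LIF that holds pluripotent cells in the naive state, was replaced by N2B27 without them. In the other 8 conditions, cells that had differentiated for 0, 24, 48 or 96 h were moved to serum/LIF and grown for another 48 h, either with dox at 2 µg/ml (+dox) or without it (–dox), and these are called re-seeded cells. The animal age and sex of origin and the number of iPSC clones were not given in the sources used here. The study's methods describe gelatin for the differentiating cells and CF1 MEFs for the re-seeded ones in the colony assay, and do not say whether the sequenced cells were grown the same way.

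Threonine dehydrogenase (Tdh) oxidises threonine in mitochondria, and glycine C-acetyltransferase (Gcat) splits the product into glycine and acetyl-CoA. Glycine decarboxylase (Gldc) starts the glycine cleavage system, which hands a carbon unit to tetrahydrofolate, and this route from threonine is known as one that mouse embryonic stem cells depend on for nucleotide synthesis and histone methylation. Serine hydroxymethyltransferases interconvert serine and glycine, Shmt1 in the cytosol and Shmt2 in mitochondria, Mthfd2 oxidises the mitochondrial folate-bound carbon unit, and Phgdh, Psat1 and Psph carry out the consecutive steps of serine synthesis.

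Values are FPKM (mapped fragments scaled for transcript length and library size), so that levels can be set side by side between genes. Each condition has 1 value that combines its 2 replicates, so no spread between replicates, standard error or p-value could be given for any difference below. Which of the differences exceed replicate error was not examined here, and the authors' own response calls were not used. A gene was counted as higher or lower when the larger of the values compared was at least 1 FPKM and their ratio was at least 2. In each such comparison the share of all genes that met the same rule is given as the background, and it shows how common a change of that size was between these conditions. Summed over genes, the conditions had 603278 to 832607 FPKM, and the read depth behind them is unknown. The 12 naive pluripotency markers summed to 1462 FPKM at 0 h, with none at 0, and to 50.6 FPKM at 96 h. The 20 fibroblast markers, chosen as a possible sign of feeder cells, summed to 945 FPKM at 0 h and to between 31.6 and 101 FPKM at the later times. Which cells this signal came from was not tested in any condition. In the re-seeded cells they summed to 180 FPKM at 96 h –dox and to between 18.6 and 40.1 FPKM in the other 7 conditions. The 0 h condition stands apart over most of the list, with 18 of the 20 at 1 FPKM or more and Dcn at 71.0, Fbln2 at 71.1 and Lum at 14.8 FPKM, and the part of feeder RNA in the results that rest on it was not tested. At 96 h –dox 14 of the 20 were at 1 FPKM or more, and the sum came mostly from the collagen genes Col1a2 (86.0 FPKM) and Col1a1 (33.2 FPKM). Postn (9.91 FPKM), Pdgfrb (7.37 FPKM) and Twist2 (3.24 FPKM) also had their highest values of the re-seeded cells there. In the same condition Fbln2 was at 2.65, Dcn at 0.791, Thy1 at 0.222 and Lum at 0.0605 FPKM. In bulk RNA, fewer cells that express a gene and less RNA per cell cannot be told apart.

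All 9 genes are protein-coding in Gencode M21 on mm10. Tdh lies at chr14:63492347-63509092, Gcat at chr15:79030874-79038353, Gldc at chr19:30098447-30175429, Shmt1 at chr11:60788104-60811718 and Shmt2 at chr10:127517123-127522444. Mthfd2 lies at chr6:83305691-83325908, Phgdh at chr3:98313170-98339990, Psat1 at chr19:15904678-15947337 and Psph at chr5:129765558-129787449. Gcat is on the plus strand and the other 8 are on the minus strand. Whether the counting used strand is not given in the sources used here, so that reads from overlapping opposite-strand genes could be shared. Such a neighbour was low for Tdh, where the antisense gene Gm17232 did not exceed 0.553 FPKM, and high for Psph, where Cct6a lay between 129 and 325 FPKM. Ndufa4l2, opposite Shmt2, ranged from 0.559 to 44.0 FPKM and was highest at 0 h –dox, where Shmt2 had 107 FPKM. Phgdh has a processed pseudogene, Phgdh-ps1, and how reads were split between the copies is uncertain. Gcat has 2 records in Gencode M21 that overlap on the same strand, and how its reads were assigned is likewise uncertain.

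The promoter windows of genes whose levels moved together or apart are shown so that their composition can be compared. They are Gcat and Shmt1, which both ended lower at 96 h than at 0 h, Shmt2, the isozyme of Shmt1 and the gene of the 9 with the smallest range over the 15 conditions, and Mthfd2 and Phgdh, which were alike over the time course. Each window runs 5′ to 3′ from 250 bases before to 50 bases after the RefSeq start site on GRCm38.p6, and capitals mark an E-box (CACGTG) or a GC box (GGGCGG, or CCGCCC where it is on the other strand).
Gcat (chr15:79030624-79030923, + strand): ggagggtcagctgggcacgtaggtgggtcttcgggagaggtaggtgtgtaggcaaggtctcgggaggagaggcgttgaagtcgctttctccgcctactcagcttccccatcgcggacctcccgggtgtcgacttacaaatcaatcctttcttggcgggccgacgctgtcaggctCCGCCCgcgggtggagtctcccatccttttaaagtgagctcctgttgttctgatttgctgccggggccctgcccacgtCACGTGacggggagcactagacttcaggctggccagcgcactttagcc
Shmt1 (chr11:60811216-60811515, - strand): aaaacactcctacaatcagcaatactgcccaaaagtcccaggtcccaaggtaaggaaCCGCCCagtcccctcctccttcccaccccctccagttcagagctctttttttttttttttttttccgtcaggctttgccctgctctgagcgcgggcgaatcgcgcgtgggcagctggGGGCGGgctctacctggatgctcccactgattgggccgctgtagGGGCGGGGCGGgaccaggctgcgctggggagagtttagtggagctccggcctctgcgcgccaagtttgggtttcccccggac
Shmt2 (chr10:127522395-127522694, - strand): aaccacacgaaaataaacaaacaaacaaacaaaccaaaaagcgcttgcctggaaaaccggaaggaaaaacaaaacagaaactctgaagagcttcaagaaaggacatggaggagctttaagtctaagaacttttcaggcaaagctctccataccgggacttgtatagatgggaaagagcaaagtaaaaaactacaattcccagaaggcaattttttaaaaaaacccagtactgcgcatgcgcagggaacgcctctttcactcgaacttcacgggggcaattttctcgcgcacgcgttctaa
Mthfd2 (chr6:83317555-83317854, - strand): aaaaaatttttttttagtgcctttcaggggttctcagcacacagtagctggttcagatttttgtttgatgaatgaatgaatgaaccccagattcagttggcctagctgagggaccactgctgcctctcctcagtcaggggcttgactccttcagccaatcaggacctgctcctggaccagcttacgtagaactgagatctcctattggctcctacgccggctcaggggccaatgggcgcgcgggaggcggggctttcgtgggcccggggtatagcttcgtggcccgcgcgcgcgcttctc
Phgdh (chr3:98339920-98340219, - strand): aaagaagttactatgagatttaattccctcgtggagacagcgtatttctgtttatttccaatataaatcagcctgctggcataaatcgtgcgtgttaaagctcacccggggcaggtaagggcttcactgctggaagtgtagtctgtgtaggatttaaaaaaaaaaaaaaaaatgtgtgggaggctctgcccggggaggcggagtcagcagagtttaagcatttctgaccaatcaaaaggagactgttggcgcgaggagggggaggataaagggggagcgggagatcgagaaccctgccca

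RefSeq gave 9 windows for 8 of the 9 genes, 2 of them for Psat1 and none for Tdh. The GC box, the letters bound by Sp1-like factors, was present in 5 of the 9 windows, 1 each of Gcat, Gldc, Shmt1, Psat1 and Psph, against 35.7% of the 32851 mouse windows. In Shmt1 it occurred 4 times, with 2 copies overlapping, and in Shmt2 not once. The E-box, the letters bound by Myc and related factors, was found in the Gcat window alone, 3 bases into the transcript at chr15:79030876-79030881, against 7.15% of windows. The core of the C/EBP-ATF response element (TGATGNAA), the letters bound by Atf4 on amino acid shortage, was in 0 of the 9 windows and in 3.97% of all. G and C made up between 42.7% of the window in Shmt2 and 66.7% in 1 window of Psat1, around a median of 52.7% over all windows. The number of CpG dinucleotides was 10 to 30 per window and the median of all was 7. These matches describe the letters of short windows, and none was tied to a binding measurement.

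The time course asks how the pathway changed as the cells left the naive state. Tdh fell from 301 to 1.99 FPKM, Gcat and Shmt1 fell about as much as each other, and Phgdh rose. Of the 9 genes, 3 (Tdh, Gcat and Shmt1) were lower at 96 h than at 0 h by the 2-fold rule, against 16.4% of the genes compared, and 1 (Phgdh) was higher, against 16.8%. The median log2 ratio of 96 h to 0 h was -0.32 over the 9 genes and -0.02 over all genes. Between any pair of timepoints, 7 of the 9 met the rule, all but Shmt2 and Psph, while 60.7% of all genes did so. Without the 0 h condition and its fibroblast markers 6 of the 9 did, and the share of all genes was not counted for that setting.

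**Figure D1:**
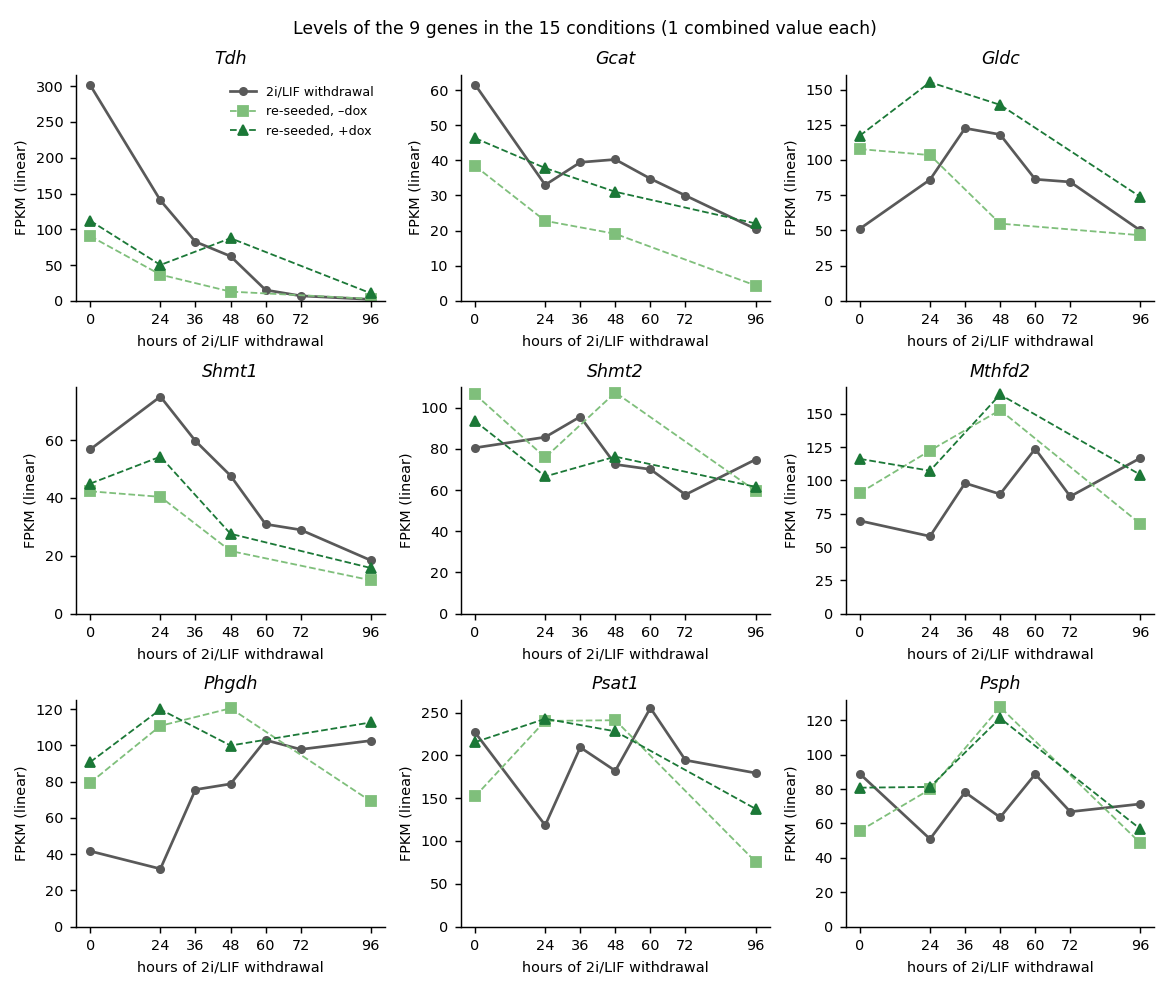
FPKM of the 9 genes (vertical axes) against hours since 2i/LIF withdrawal (horizontal axes) in the time course and in cells re-seeded in serum/LIF –dox or +dox. Each point is 1 combined value of 2 replicates, so there are no error bars; Tdh drops from 301 to 1.99 FPKM in the time course while Phgdh goes from 41.6 to 103 FPKM.

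The expression of Tdh at 0, 24, 36, 48, 60, 72 and 96 h was 301, 140.4, 82.6, 62.3, 15.1, 6.94 and 1.99 FPKM. The value was lower at each timepoint than at the one before, a pattern shown by 138 genes or 0.979% of those that reached 1 FPKM. At 96 h it was 152-fold lower than at 0 h (log2 ratio -7.25), and 36 of 13202 genes, Tdh among them, had a ratio as low. Here and below, genes at 0 FPKM in either condition have no ratio and are left out of such ranks, also where they fell to 0. A fall of at least 100-fold, a size named after the value was seen, was found for 1.35% of the genes compared. In the order of FPKM over all 22477 genes Tdh went from rank 319 at 0 h to rank 10996 at 96 h. The fall was not spread evenly, since 20.7% of the 0 h level was left at 48 h and 5.02% at 60 h.

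Gcat, the partner enzyme, fell less and in another shape. Its levels at the 7 timepoints, in order, were 61.6, 33.0, 39.5, 40.3, 34.8, 30.0 and 20.5 FPKM. The 96 h value was 3.01-fold lower than that at 0 h, and between 24 and 72 h the values stayed within 30.0 and 40.3 FPKM. Because both are per length, the 2 enzymes of the route can be set against each other. The ratio of Tdh to Gcat was 4.89 at the start and 1.55 after 48 h, then 0.435 after 60 h and 0.0971 after 96 h, so that the order of the pair changed between 48 and 60 h.

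Gldc, which starts the glycine cleavage system, was highest in the middle of the time course. From 0 to 96 h it stood at 51.2, 86.0, 123, 118, 86.3, 84.4 and 49.9 FPKM. Only the 36 h and 48 h values met the rule against 0 h, at 2.39-fold and 2.31-fold, where 11.3% and 12.1% of genes were higher. The 96 h value had returned to near that of 0 h, with a log2 ratio of -0.04 that became 0.23 when conditions were scaled to the same total.

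The paired hydroxymethyltransferases parted over differentiation. Shmt1, the cytosolic form, had 56.8, 75.0, 59.7, 47.7, 30.9, 29.0 and 18.4 FPKM from 0 to 96 h, which is a 3.08-fold fall from 0 to 96 h and a 4.07-fold range. Shmt2, the mitochondrial form, had 80.6, 85.8, 95.7, 72.5, 70.1, 57.8 and 74.9 FPKM at the same times, a range of 1.66-fold that met the rule between no pair of timepoints. Shmt2 was thus above Shmt1 at each timepoint, by 1.42-fold at 0 h and 1.14-fold at 24 h and by 4.06-fold at 96 h.

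**Figure D2:**
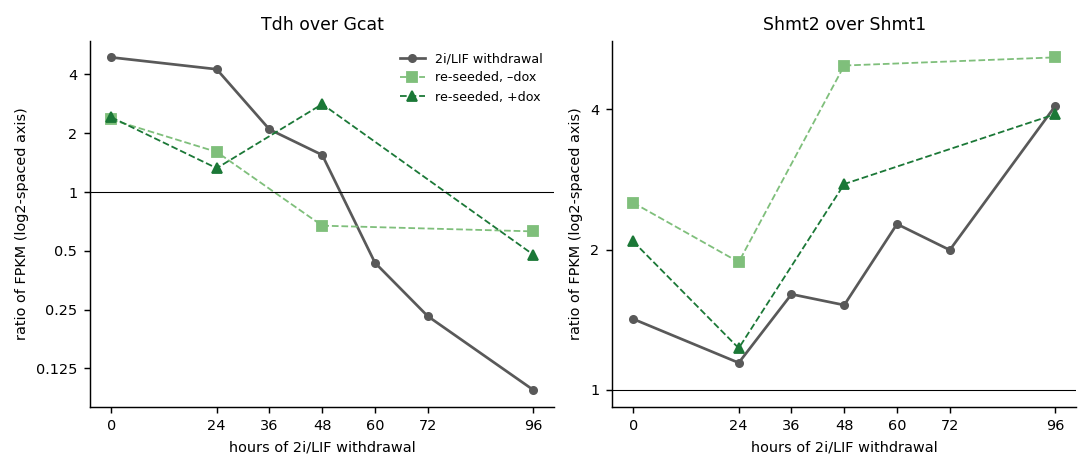
Ratios of FPKM between pairs of the genes (vertical axes, log scale) in each of the 15 conditions. The ratio of Tdh to Gcat goes from 4.89 at 0 h to 0.0971 at 96 h, and that of Shmt2 to Shmt1 from 1.42 to 4.06.

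Mthfd2 and the genes of serine synthesis did not share the fall. Mthfd2 had 69.7, 58.1, 97.9, 89.7, 124, 88.0 and 117 FPKM from 0 to 96 h, with a 2.13-fold range between 24 and 60 h. Phgdh, the first enzyme of serine synthesis, had 41.6, 31.8, 75.6, 78.7, 103, 97.8 and 103 FPKM at these times. It more than doubled in the single step from 24 to 36 h (2.37-fold, a step in which 5.44% of genes were higher) and ended 2.47-fold above 0 h. At 0 h Tdh was 7.24-fold above Phgdh, and at 96 h Phgdh was 51.6-fold above Tdh.

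Psat1, the aminotransferase of serine synthesis, was the most abundant of the 9 from 36 h on, and from 0 to 24 h it was second to Tdh. Its values from 0 to 96 h were 227, 118, 209, 182, 256, 194 and 179 FPKM. Psph, the phosphatase that ends the route, had 88.8, 50.9, 78.1, 63.5, 88.6, 66.8 and 71.3 FPKM, and its range of 1.74-fold met the rule nowhere. Both had their lowest value of the time course at 24 h. Psat1 was 1.92-fold higher at 0 h and 1.77-fold higher at 36 h than at 24 h, and Psph 1.74-fold and 1.53-fold. Phgdh and Mthfd2 were also lowest at 24 h, but were only 1.31-fold and 1.20-fold higher at 0 h. A dip of at least 1.5-fold on both sides, a rule set after these values were seen, was met by Psat1 and Psph among the 9 and by 4.83% of all genes.

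Re-seeding asks what the genes did when the differentiated cells were put in serum/LIF without OSKM, and so gives the baseline for dox. Here too the longer the cells had differentiated, the lower was Tdh, and at 96 h all 9 genes were below their values in cells re-seeded at 0 h. In cells re-seeded at 0, 24, 48 and 96 h, Tdh had 90.4, 36.5, 12.8 and 2.74 FPKM. Gcat had 38.4, 22.8, 19.1 and 4.36 FPKM, the last being its lowest value in the 15 conditions. Of the 9 genes 5 (Tdh, Gcat, Gldc, Shmt1 and Psat1) were lower at 96 h than at 0 h –dox by the rule and none was higher, where 21.7% and 21.5% of genes were. The summed fibroblast markers moved with this comparison, from 18.6 to 180 FPKM with 3 and 0 of the 20 at 0, led by the collagen genes. Postn reached 9.91 and Pdgfrb 7.37 FPKM, while Dcn and Lum stayed below 1 FPKM. The part of the cells that express these markers was not tested.

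Other –dox values were as follows. Gldc had 108, 103, 54.8 and 46.6 FPKM after 0, 24, 48 and 96 h of differentiation, and Shmt1 had 42.3, 40.4, 21.7 and 11.6. Shmt2 had 107, 75.9, 107 and 59.7 FPKM, and Mthfd2 had 90.6, 122, 153 and 67.4. The high values at 48 h recur in the serine genes. Phgdh had 79.4, 111, 120.4 and 69.2 FPKM, Psat1 had 152, 240.4, 241 and 75.7, and Psph had 55.7, 79.8, 128 and 48.5. Mthfd2, Phgdh, Psat1 and Psph were each highest in the cells re-seeded at 48 h, though only Psph met the rule against 0 h –dox (2.29-fold, where 15.1% of genes were higher), while Tdh and Gcat were lower (17.4% of genes).

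Each re-seeded –dox condition could also be set against the time course condition from which it was taken, which changes the medium, 48 h of culture and possibly the feeders together. At 0 h, where serum/LIF is set against 2i/LIF, Tdh was 3.33-fold lower (10.1% of genes were lower) and Gldc was 2.10-fold higher (12.0% of genes), and Phgdh reached 1.91-fold. The fibroblast markers summed to 945 FPKM in the 2i/LIF cells and to 18.6 FPKM in the serum/LIF cells, and their part in these ratios was not tested. At 24 h, Phgdh (3.48-fold), Mthfd2 (2.11-fold) and Psat1 (2.03-fold) were higher, where 14.9% of genes were, and Tdh was lower (10.6% of genes). At 48 h, 4 of the 9 (Tdh, Gcat, Gldc and Shmt1) were lower, where 11.5% of genes were, and Psph was 2.01-fold higher (15.3% of genes), a ratio that drops under 2 when 1 FPKM is added to both values. At 96 h, Gcat and Psat1 were lower, where 11.2% of genes were, and none of the 9 was higher (12.4%).

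Induction of OSKM asks which of the genes respond to the reprogramming factors at each stage of differentiation. Every call was upwards and all were in the threonine and glycine genes: Tdh and Gldc were higher +dox than –dox at 48 h, and Tdh and Gcat at 96 h. At 0 and 24 h none of the 9 met the rule in either direction, while 3.62% of all genes were higher and 5.61% lower at 0 h, and 2.87% and 3.40% at 24 h. At 48 h, 2 of 9 were higher and 0 lower, against 6.56% and 6.46% of genes. At 96 h, 2 of 9 were higher and 0 lower, against 6.67% and 11.1% of genes. The median log2 ratio of +dox to –dox over the 9 genes was 0.27, 0.11, 0.11 and 0.66 in cells differentiated for 0, 24, 48 and 96 h, while that of all genes was 0.05, 0.02, -0.02 and -0.01.

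**Figure D3:**
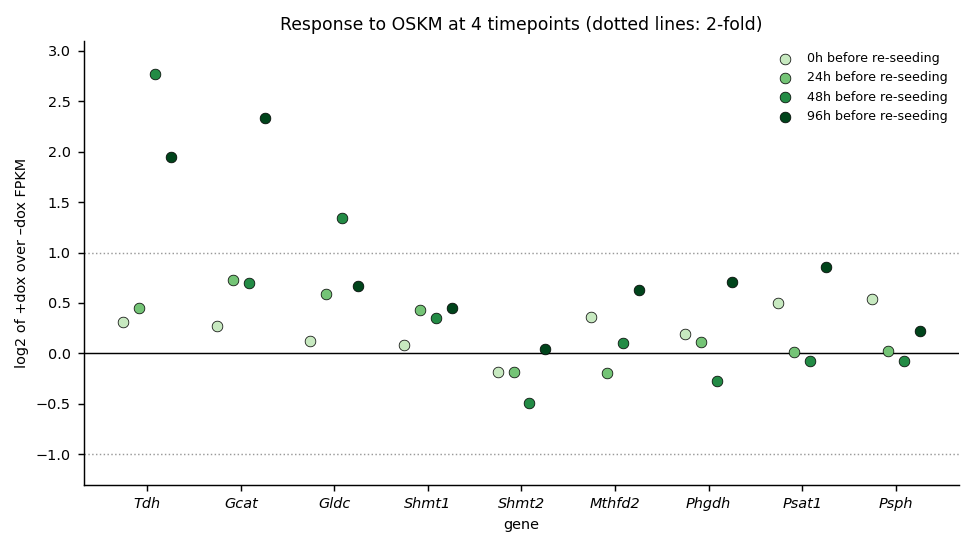
Log2 ratio of +dox to –dox FPKM (vertical axis) for each of the 9 genes after 0, 24, 48 and 96 h of differentiation. Each ratio is of 2 combined values without error bars; Tdh stands at 2.77 at 48 h, and Gcat at 2.34 at 96 h.

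In +dox cells re-seeded at 0, 24, 48 and 96 h, Tdh had 112, 50.1, 87.5 and 10.5 FPKM. Set against the –dox values of 90.4, 36.5, 12.8 and 2.74 FPKM, the log2 ratios were 0.31, 0.45, 2.77 and 1.94. The 48 h ratio is 6.82-fold, and 70 of 12618 genes, Tdh among them, had one as high. The 96 h ratio is 3.84-fold, matched or passed by 210 of 12644 genes. The order over time differs from that without dox, as Tdh was higher +dox at 48 h than at 24 h. At 48 h +dox its level was 0.97 of that in cells re-seeded without dox at 0 h, so that these 2 values lie side by side, while at 96 h +dox Tdh was still lower by the rule than in those cells (10.5 against 90.4 FPKM, where 19.6% of genes were lower). The naive markers in the same conditions summed to 156 FPKM at 48 h –dox and 343 FPKM at 48 h +dox, and to 78.6 and 73.3 FPKM at 96 h. The 96 h sums hide changes both ways by the rule. There Nanog, Esrrb and Tfcp2l1 (4.11 FPKM –dox and 22.7 +dox) were higher +dox, where 6.67% of genes were. Klf2 (10.6 and 1.80 FPKM), Klf5, Tbx3 and Dppa3 were lower, where 11.1% of genes were. The list also holds Klf4, itself a transgene in these cells.

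Gcat responded most at the latest stage. Its +dox levels, in the same order, were 46.3, 37.8, 31.1 and 22.0 FPKM, and the log2 ratios to –dox were 0.27, 0.73, 0.70 and 2.34. The 96 h ratio of 5.06-fold was matched or passed by 131 of 12644 genes. The values behind it were 4.36 FPKM –dox and 22.0 FPKM +dox. The 96 h –dox condition is the one with the most fibroblast marker signal of the re-seeded cells, 180 FPKM in sum against 39.5 +dox, with 0 and 1 of the 20 markers at 0. Dcn was at 0.791 FPKM –dox and 3.64 +dox, so that the markers did not all move the same way, and their part in the 96 h ratios was not tested.

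Gldc had 117, 155, 139 and 73.8 FPKM +dox, with log2 ratios to –dox of 0.12, 0.59, 1.34 and 0.66. The 48 h ratio, 2.54-fold, was the only 1 to meet the rule. Shmt1 had 44.9, 54.2, 27.6 and 15.8 FPKM +dox, and its log2 ratios of 0.09, 0.43, 0.35 and 0.45 never met it. Tdh, Gcat, Gldc and Shmt1 were each above –dox at all 4 timepoints by any amount, as were 16.6% of the genes that reached 1 FPKM throughout, but the 0 h ratios of Gldc and Shmt1 turned below 1 when conditions were scaled to the same total.

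The remaining 5 genes met the rule at no timepoint. Shmt2 had 93.5, 66.7, 76.3 and 61.6 FPKM +dox, with log2 ratios of -0.19, -0.19, -0.49 and 0.05, the last of which became -0.13 under scaling to the same total. Mthfd2 had 116, 107, 164 and 104 FPKM, with log2 ratios of 0.36, -0.19, 0.11 and 0.63. At 96 h, Phgdh was 113 FPKM +dox and 69.2 –dox, and Psat1 was 138 and 75.7, log2 ratios of 0.70 and 0.86 that stayed under the rule. Earlier, Phgdh had 90.8, 119.8 and 99.9 FPKM +dox at 0, 24 and 48 h, and Psat1 had 216, 243 and 228. Psph had 80.8, 81.2, 121 and 56.7 FPKM +dox, and its log2 ratios lay between -0.07 and 0.54.

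Genes can be grouped by how alike their values were over the conditions, measured as the Pearson correlation of log2(FPKM + 1). This is a description, as the conditions share cells, medium and processing and are not independent samples, and n is 7 in the time course and 8 in the re-seeded cells. Tdh was most like Shmt1 (r = 0.94) and Gcat (0.86) in the time course, and most like Gcat (0.91), Gldc (0.89) and Shmt1 (0.87) in the re-seeded cells. Mthfd2 and Phgdh were alike in the time course (r = 0.92) and less so in the re-seeded cells (r = 0.70), and Psat1 and Psph were alike in both (r = 0.95 and 0.80). Tdh and Phgdh ran in opposite directions in the time course (r = -0.82) but not in the re-seeded cells (r = 0.14). The likeness of Tdh and Gldc was weak in the time course (r = 0.21). The median over the 36 pairs and 15 conditions was 0.35.

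**Figure D4:**
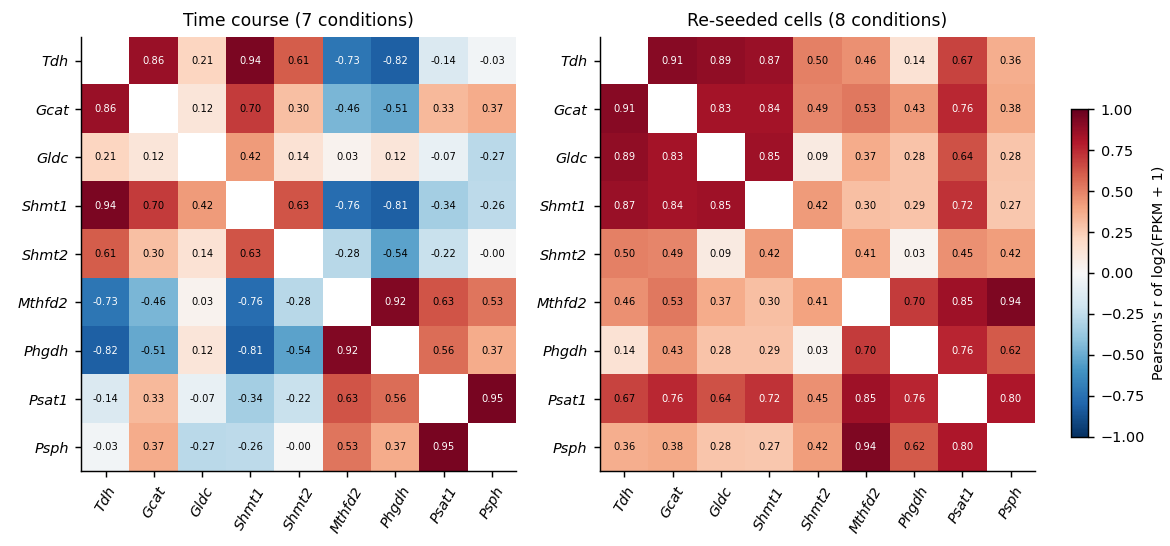
Pearson correlation of log2(FPKM + 1) between each pair of the 9 genes in the 7 time course conditions and the 8 re-seeded conditions, as a colour scale. Tdh and Phgdh are at -0.82 in the first and 0.14 in the second.

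Over all 15 conditions, 9068 genes that reached 10 FPKM were ranked by likeness to each of the 9. Closest to Tdh were Eif2b5, a subunit of the translation initiation factor eIF2B (r = 0.97), Atp6v1c1, a subunit of the vacuolar proton pump (0.94), and Zyg11a (0.94). Eif2b5 had 129.9 FPKM at 48 h –dox and 232 FPKM at 48 h +dox. Closest to Gcat were Gsta4, Prps1 and Polr2c, at 0.93 to 0.95, and Prps1 makes the ribose phosphate donor of nucleotide synthesis. Gldc was most like Cipc, Ubqln4 and Slc39a14 (0.86 to 0.89), and Shmt1 was most like Gm13145, Gm2381 and Rnf17, all at 0.96. Shmt2 was closest to Safb2, Itfg2 and Smap2 (0.83 to 0.85), Phgdh to Mapk3, Bspry and Arhgef2 (0.91 to 0.93) and Psat1 to Hax1, Idh3a and Lsm4 (0.86 to 0.89). The glycyl-tRNA synthetase Gars and the leucyl-tRNA synthetase Lars appeared for both Mthfd2 (0.91 and 0.86) and Psph (0.85 and 0.83), beside Mrpl23 (0.86) for Mthfd2 and Uqcc2 (0.88) for Psph.

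Around the 9 genes, 72 others of the pathway were followed in 7 lists. Of these, 12 were higher and 12 lower at 96 h than at 0 h, among 69 that reached 1 FPKM, with a median log2 ratio of -0.13 over those not listed at 0. Over all genes 16.8% were higher and 16.4% lower, so that the calls among these 72 were about as frequent as elsewhere. In the glycine cleavage system, 1 of 3 other subunits changed: Amt, which releases the carbon unit to folate, fell from 66.4 to 27.3 FPKM. Of 13 folate enzymes 1 was higher and 3 lower, among them Aldh1l1, which oxidises formyl-tetrahydrofolate, from 11.7 to 0.476 FPKM. Of 11 genes of the methionine cycle and transsulfuration, 1 was higher and 5 lower, among them Cbs, from 26.5 to 2.90 FPKM, and Cth, from 112 to 25.8 FPKM, which carry homocysteine on to cysteine. Bhmt, which remethylates homocysteine, had 10.1 FPKM at 0 h and was listed at 0 at 96 h.

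Of 12 transporters 3 were higher and none lower, where 16.8% and 16.4% of all genes were, among them the serine carrier Slc1a4, from 6.72 to 15.9 FPKM, and the glutamine carrier Slc38a1, from 18.6 to 37.3 FPKM. Of 6 genes of serine and glycine breakdown 3 were higher and 0 lower, but Sdsl (0.327 and 2.09 FPKM), Gnmt (0.813 and 2.87) and Gatm (0.308 and 3.39) were low at both times, as was the third transporter, Slc6a9 (0.833 and 3.28). These 4 genes are named after their values were seen, to complete the counts. Of 13 purine synthesis genes 1 was higher and 2 lower, namely Prps1, from 114 to 45.6 FPKM, and Ppat, the first committed step, from 47.9 to 20.3 FPKM. Of 14 genes of the amino acid response, which Atf4 switches on, 3 were higher and 1 lower at 96 h. Chac1 went from 13.4 to 70.2 FPKM, while asparagine synthetase (Asns) went from 594 to 235 FPKM. At 24 h the same list had 8 genes lower and 0 higher, where 14.3% and 8.64% of all genes were, and its median log2 ratio was -1.12. Asns stood there at 144 FPKM, and the stress factor Ddit3 at 7.54 FPKM after 58.8 FPKM. Psat1, Psph, Phgdh and Mthfd2 had their lowest values of the time course in this condition. Within the amino acid response list, Chac1 (7.21 FPKM), Trib3 (13.3), Pycr1 (10.5) and Cebpb (1.80) were lowest at 24 h too. The low points of Asns (48 h, 103 FPKM), Ddit3 (36 h, 7.16 FPKM) and Atf5 (36 h, 9.76 FPKM) came later. Whether the serine genes and this list are linked was not tested.

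**Figure D5:**
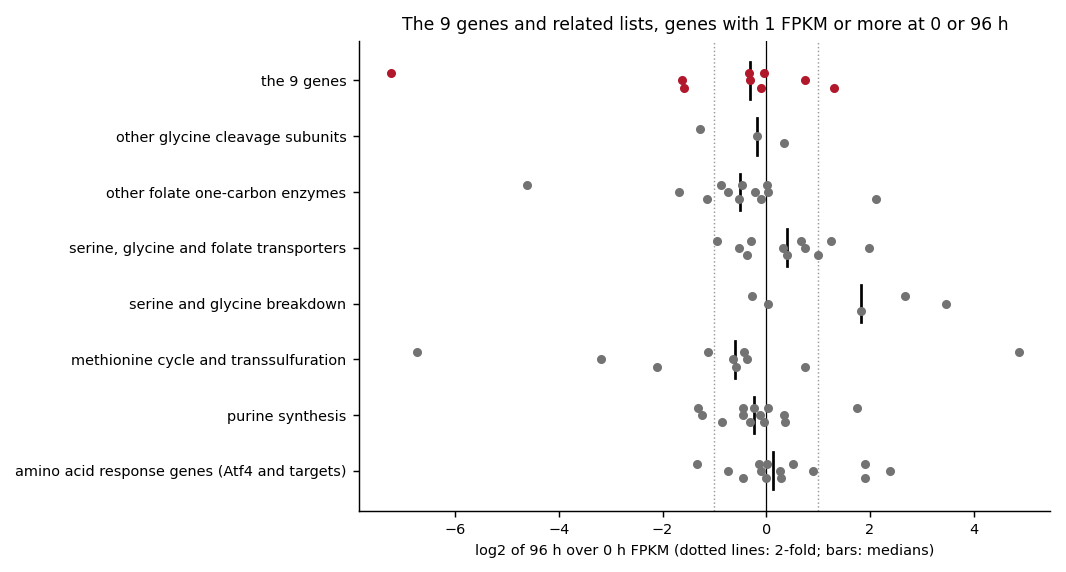
Log2 ratio of 96 h to 0 h FPKM (horizontal axis) for the 9 genes and for the genes of the 7 other pathway lists (rows) that reached 1 FPKM at 0 or 96 h, with the median of each list as a bar; Bhmt, listed at 0 at 96 h, is counted as lower but has no point. The median of the 9 is -0.32, and 12 of the 72 other genes are higher and 12 lower.

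After OSKM induction the other pathway genes were called in both directions at each stage. Of the 72, the numbers higher and lower +dox were 3 and 3 at 0 h, then 2 and 5, 1 and 5, and 5 and 10 in cells differentiated for 24, 48 and 96 h. The shares of all genes that were higher and lower were 3.62% and 5.61%, 2.87% and 3.40%, 6.56% and 6.46%, and 6.67% and 11.1%, and the counts are read against these. At 48 h the only gene higher was Cbs, at 3.07 FPKM –dox and 9.98 FPKM +dox, and it was higher again at 96 h, at 0.851 and 5.75. At 96 h Prps1 was 12.3 FPKM –dox and 30.7 +dox, the folate enzyme Mthfd1 was 23.3 and 50.5, and the proline enzyme Pycr1 was 6.29 and 14.0. Lower at 96 h were, among others, the thymidylate synthase Tyms, at 52.4 FPKM –dox and 24.1 +dox, and the folate receptor Folr1, at 37.2 and 15.8. Folr1 was also lower at 48 h, at 211 FPKM –dox and 61.7 +dox. The 4 dox comparisons use different control samples at each stage, whereas the comparisons with 0 h of the time course all share that condition.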

How the data were processed

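Polyadenylated RNA of 30 samples was sequenced, and 1 expression table was analysed. The authors mapped reads to mm10 with TopHat2 2.0.14, using Gencode vM4, and quantified genes with Cufflinks 2.2.1; Cuffdiff then combined the 2 replicates of each of the 15 conditions into the deposited FPKM values, 1 per gene and condition. The file's name says RPKM and the methods FPKM. The library normalization and strand setting are not given in the sources used here, and read depth is unknown. The table's 5 columns of the authors' own response calls were not used. Samples were grouped by their labels.

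Plain ratios were computed in Python 3.11.15 with numpy 2.4.6 and pandas 2.3.3, and figures were drawn with matplotlib 3.10.9. A change needed a 2-fold ratio and 1 FPKM in the higher condition, and this rule was tested on simulated data. No test was run, since no replicate values were analysed. Correlations used log2(FPKM + 1) and, for the closest genes, those reaching 10 FPKM. The members and lists were chosen with earlier results of these data known. Genes named are the 9 members, the 3 genes closest to each, and listed pathway genes that reached 10 FPKM and met the rule at 96 h against 0 h or after dox. The promoter windows and gene positions come from RefSeq (GRCm38.p6) and Gencode M21 (mm10). Alternatives covered the fold, the minimum, an added FPKM, the scaling, and the conditions left out.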

Additional observations from a re-analysis of the deposited data

Results flagged for a closer look

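For 2 of the 9 genes, the comparison of re-seeded –dox cells with the time course condition they came from ran in opposite directions at different stages, with both values past the 2-fold rule. Gldc had a log2 ratio of 1.07 at 0 h and -1.11 at 48 h. Psat1 had a log2 ratio of 1.02 at 24 h and -1.25 at 96 h. The difference between stages was not tested, because each condition has a single combined value.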

How the results depend on the processing

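No paired analysis was possible because the table holds 1 combined value per condition, which also means that no replicate could be left out in turn. Over the time course 7 of the 9 genes met the 2-fold rule between some pair of timepoints, where 60.7% of all genes did. A 3-fold rule was met by 4 of the 9. Of the 36 gene and stage combinations 4 met the rule after dox, 11 at 1.5-fold, and 2 of 27 without the 96 h pair, an alternative added after the data were seen. At 2-fold, 9.23%, 6.27%, 13.0% and 17.7% of all genes changed in either direction after dox at 0, 24, 48 and 96 h. Of the 36 combinations of –dox cells against the time course 13 met the rule, 22 at 1.5-fold and 5 at 3-fold. At 2-fold, 22.1%, 25.5%, 26.8% and 23.6% of all genes changed in either direction in this comparison at 0, 24, 48 and 96 h. The share of all genes was not counted at 1.5-fold, at 3-fold or with conditions left out, so the counts at those settings have no background. The median correlation over the 36 gene pairs was 0.35, and became 0.24 with untransformed FPKM, 0.26 with Spearman's coefficient, 0.12 in the time course alone and 0.49 in the re-seeded cells alone. The cause of these moves was not tested, apart from the fold itself. Of 81 single ratios, adding 1 FPKM changed 1 call (Psph at 48 h against the time course), median-ratio scaling changed 0 and scaling to the same total changed 3: Mthfd2 at 96 h against 0 h (log2 ratio 1.01), Phgdh in –dox cells against the time course at 0 h (1.17) and Psph at 48 h (0.98). None of the 21 called ratios changed sign under either scaling, while 2 and 8 of the uncalled ratios did under median-ratio and total scaling. Among the comparisons made, scaling to the same total moved the median log2 ratio of all genes most at 72 h against 0 h, by 0.38 from -0.04 to 0.34.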

Other observations

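Some genes of carbon-unit supply were high for a limited time after 2i/LIF withdrawal. Mat2a, which makes the methyl donor S-adenosylmethionine, had 65.2, 198, 179, 142 and 42.0 FPKM at 0, 24, 36, 48 and 96 h. Slc38a2, an amino acid transporter, had 49.7, 199, 225, 169 and 62.0 FPKM at these times. Both were lower +dox than –dox in cells re-seeded at 0 h, Mat2a at 24.9 against 52.5 FPKM and Slc38a2 at 20.1 against 59.2. Over the same span the 8 formative pluripotency markers summed to 64.3 FPKM at 0 h and 1200.3 at 36 h. The 10 neurectoderm markers summed to 29.6 FPKM at 0 h and to between 88.9 and 135 FPKM later. Zic2 was a large part of the later sums, with 7.84 FPKM at 0 h, 40.4 at 24 h and 78.1 at 72 h. Sox1 had 1.02 FPKM at 0 h and was lower at 36 h (0.630) and 48 h (0.464). At 36 and 48 h 4 of the 10 were at 1 FPKM or more, as at 0 h, so this list did not rise as a whole then. The 11 mesoderm and endoderm markers stayed between 3.03 and 18.2 FPKM in sum in the time course and reached 54.3 FPKM at 96 h –dox. Most of that last sum was Hand1 (38.2 FPKM), and 5 of the 11 were at 1 FPKM or more. There T was at 0.185, Eomes at 0.236 and Mixl1 at 0.163 FPKM, so the list did not rise as a whole. In the 96 h –dox condition Gcat, Gldc, Shmt1, Psat1 and Psph had their lowest values of the 15.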
